A study of Mus musculus with 3 samples.

Results

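The cells described here are 141 liver macrophages that held many transcripts of the chemokine genes Cxcl9 and Cxcl10, out of 9842 cell barcodes kept in the study. A barcode was kept with at least 1000 UMIs (unique molecular identifiers, 1 per captured RNA molecule), at least 300 genes and at most 10% mitochondrial UMIs. It counted as a Kupffer cell when Clec4f, Cd5l, C1qa, C1qb and C1qc, all abundant in Kupffer cells, together made up at least 1% of its UMIs, which 9081 barcodes did. The 141 cells were selected on their measured counts, as those of the 9081 with 3 or more UMIs summed over Cxcl9 and Cxcl10, and they are called chemokine-high cells below. They were set against the 8423 Kupffer cells of the same libraries without a single UMI of either gene (0-UMI cells), while cells with 1 UMI (428) or 2 UMIs (89) were kept apart.

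The study compared Kupffer cells after short feeding of alcohol with those of a mouse on chow. Its 3 libraries came from male mice aged 8 weeks, 1 mouse in each group, and no genetic change or other agent is named in the labels. The first mouse ate normal chow, the second the Lieber-DeCarli alcohol liquid diet with 5% ethanol for 3 days, and the third the same diet for 10 days. The control ate chow and not a liquid diet without ethanol, so ethanol, the form of the diet, the mouse and the library cannot be told apart. Liver cells were freed with collagenase, and living F4/80-high, CD11b-intermediate cells were sorted before droplet capture with the 10x Genomics Chromium 3' kit, so shares of cells describe what passed that sort. There were no replicates, and the rule that chose the cells used their measured RNA. Every comparison below is therefore a description, without a test, and its 95% intervals cover counting error only.

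Cxcl9 and Cxcl10 encode secreted chemokines that attract activated T cells and NK cells through the receptor CXCR3. Macrophages make Cxcl9 mainly in answer to interferon gamma, whereas Cxcl10 also answers to type I interferon, tumour necrosis factor and bacterial products through IRF3 and NF-kB. In the liver, Kupffer cells line the sinusoids, where portal blood brings gut-derived bacterial products, and both chemokines are known from inflamed liver. Cxcl2, a neutrophil attractant, Gbp5, an interferon-inducible GTPase that promotes inflammasome activity, and Cd83, a surface protein of activated antigen-presenting cells, were given with the pair as markers of these cells.

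The promoters of the pair and of the markers Gbp5 and Cxcl2 are shown because the results turn on genes of the interferon and NF-kB pathways. Each run ends just before the RefSeq start site, or earlier where a GENCODE exon of the same gene begins. The runs come from the RefSeq promoter table for GRCm38.p6, 5′ to 3′ on the strand of the gene, and capitals mark motif matches. They lie at chr5:92328080-92328329 (Cxcl9, minus strand), chr5:92348890-92349139 (Cxcl10, minus strand), chr3:142496684-142496899 (Gbp5, plus strand) and chr5:90903649-90903870 (Cxcl2, plus strand).
Cxcl9: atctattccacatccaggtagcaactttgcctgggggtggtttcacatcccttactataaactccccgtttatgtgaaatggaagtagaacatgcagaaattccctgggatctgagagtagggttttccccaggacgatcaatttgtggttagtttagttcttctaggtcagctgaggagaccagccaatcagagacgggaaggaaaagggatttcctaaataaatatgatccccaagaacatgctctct
Cxcl10: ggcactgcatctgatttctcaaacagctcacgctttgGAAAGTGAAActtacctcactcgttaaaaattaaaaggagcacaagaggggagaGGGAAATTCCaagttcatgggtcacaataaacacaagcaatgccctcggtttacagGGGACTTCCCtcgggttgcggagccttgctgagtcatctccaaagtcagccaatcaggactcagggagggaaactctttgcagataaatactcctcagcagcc
Gbp5: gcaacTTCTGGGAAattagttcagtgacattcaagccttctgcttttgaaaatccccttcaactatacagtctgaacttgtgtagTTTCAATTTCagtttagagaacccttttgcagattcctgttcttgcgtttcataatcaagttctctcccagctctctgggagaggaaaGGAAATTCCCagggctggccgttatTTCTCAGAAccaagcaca
Cxcl2: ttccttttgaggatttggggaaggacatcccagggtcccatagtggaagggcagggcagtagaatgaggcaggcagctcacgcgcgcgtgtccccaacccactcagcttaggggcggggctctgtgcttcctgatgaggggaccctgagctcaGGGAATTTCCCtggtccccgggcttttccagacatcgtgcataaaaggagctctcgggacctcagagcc
The motifs searched on both strands were the core of the interferon-stimulated response element (TTTC, any 2 bases, then TTTC again), the interferon gamma activation site (TTCNNNGAA) and the kappaB site bound by NF-kB. The Cxcl10 window held 1 response element core, beginning 213 bases before the start site, and kappaB matches at 159 and 103 bases before it. Gbp5 held the core at 165, activation sites at 245 and 52 and a kappaB match at 77 bases before its start. That RefSeq start lies inside the GENCODE span of Gbp5, which begins at 142493978, so the positions refer to 1 of its annotated starts. Cxcl2 held overlapping kappaB matches at 97 and 96 bases before its start, and the Cxcl9 window held none of these letters. The motifs occurred in 2.98%, 7.02% and 3.90% of 32851 RefSeq promoter windows of 250 bases. Of the 25 genes described below as higher in chemokine-high cells, 20 had a window, and 5, 5 and 5 of them held the respective motif. A gene was counted when any of its windows held the motif, whereas the percentages are of single windows, so the counts and percentages are not directly comparable. A match describes letters only, and no binding was measured.

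Chemokine-high cells were rare in each library. The chow library had 47 among 2537 Kupffer cells, the 3-day library 58 among 3820 and the 10-day library 36 among 2724. These are shares of 1.85% (exact Clopper-Pearson interval 1.36% to 2.46%), 1.52% (1.15% to 1.96%) and 1.32% (0.927% to 1.82%), and the 3 intervals overlap. Cells on chow were deeper, with medians of 4675, 3117 and 3080 UMIs per Kupffer cell, and a deeper cell reaches 3 UMIs more easily. With every cell thinned to 1000 UMIs, cells that kept 2 or more UMIs of the pair made up 0.709%, 0.707% and 0.514%. Few cells held most of the RNA of the pair. The chemokine-high cells carried 629 of 841, 591 of 844 and 424 of 565 UMIs of the pair in Kupffer cells, which is 74.8%, 70.0% and 75.0%. The 5 richest cells alone had 53.4%, 39.8% and 51.4% of what the chemokine-high cells of their library held.

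Cxcl9 (ENSMUSG00000029417, chromosome 5, 92321347 to 92328079, GRCm38) had 354 UMIs in the chemokine-high cells on chow, 256 at 3 days and 234 at 10 days, or 1148, 986 and 1405 CPM (the usual CPM scale, on which the UMIs of a gene are divided by all UMIs of the summed cells). Cxcl10 (ENSMUSG00000034855), its neighbour at 92346638 to 92348889, had 275, 335 and 190 UMIs, or 892, 1290 and 1141 CPM. These levels follow from the rule and are no finding. Cells with UMIs of both genes were a minority. Of the 141 cells, 67 held Cxcl10 alone, 42 Cxcl9 alone and 32 both (10 on chow, 17 at 3 days and 5 at 10 days). The median cell held 5, 4 and 5 UMIs of the pair in the 3 libraries, while the richest cells held 98, 79 and 80. At so few UMIs a transcript of the second gene can go uncaptured, so alone refers to UMIs seen and does not show absence. Just inside the limit were 13, 22 and 9 cells with exactly 3 UMIs, and just outside it 30, 40 and 19 cells with 2. CXCR3 itself was nearly absent, with 3 Cxcr3 UMIs on chow and 0 in the other libraries.

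**Figure D1:**
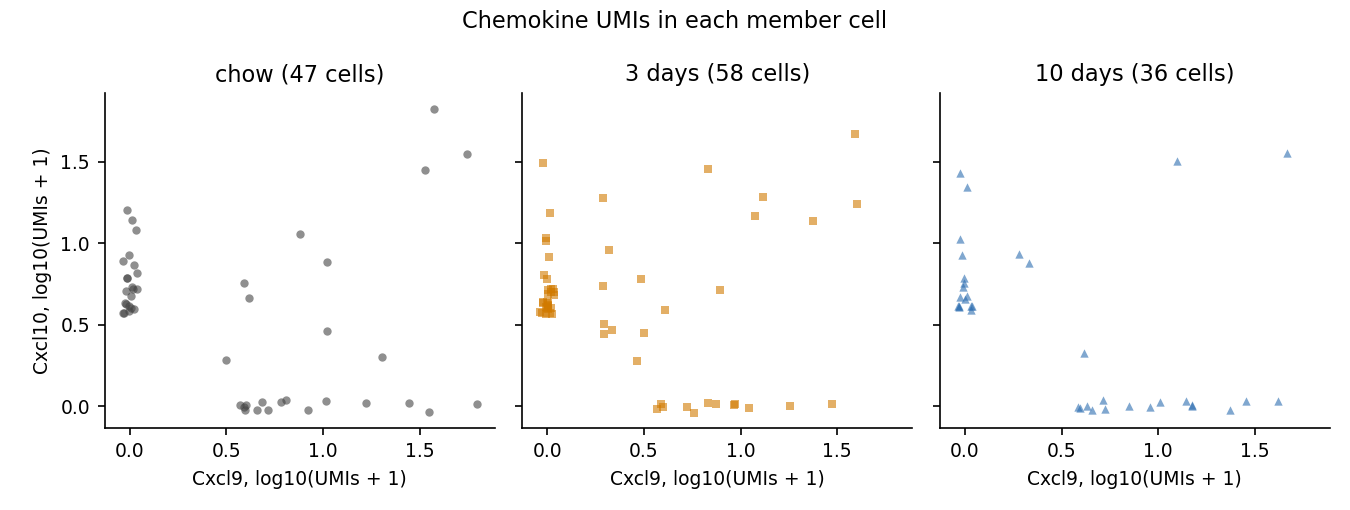
Each point is 1 chemokine-high cell, called a member in the picture and placed by its Cxcl9 UMIs (x axis, log10 of UMIs + 1) and Cxcl10 UMIs (y axis, same scale) in the chow, 3-day and 10-day libraries; points are shifted slightly so that equal values can be seen. Most of the 47, 58 and 36 cells lie along 1 of the axes, and the cells with most of both transcripts stand apart at the upper right of each panel.

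Genes of resident Kupffer cells that the rule did not use were present in these cells, some at lower levels than in 0-UMI cells. Vsig4, a complement receptor of resident macrophages, had 2404, 2731 and 2366 CPM in chemokine-high cells (chow, 3 days, 10 days) and 3269, 3568 and 3524 CPM in 0-UMI cells. Csf1r, the receptor for the macrophage growth factor, had 2310, 2018 and 2126 CPM against 2498, 2253 and 2332 CPM. Timd4, a receptor for dying cells on long-lived Kupffer cells, had 503, 481 and 619 CPM against 482, 444 and 456 CPM. The monocyte gene Ly6c2 had 2, 2 and 0 UMIs, but the sum of its list was higher. Of 4 measured members of that list, 0 were above 1 in all 3 libraries, and the median log2 ratios were 0.76, 0.55 and −0.40. For S100a8, a gene of the list, 1 cell held 97.4% of the UMIs on chow. The monocyte and neutrophil list in sum had 678, 639 and 468 CPM against 448, 433 and 333 CPM. Over all libraries it had 411 CPM in cells with 0 UMIs of the pair and 908 CPM with 16 or more. Of the given markers, Gbp5 and Cd83 were higher in every library, but Cxcl2 was held by only 17 of the 141 cells, and on chow by 4 UMIs. More chemokine-high cells than 0-UMI cells lay close to the limit for Kupffer cells: 22 cells (15.6%) had Kupffer transcripts under 1.5% of their UMIs, against 5.20% of 0-UMI cells.

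Some of these barcodes also carried RNA of genes listed for other cells. Their median depths were 6467, 4199 and 4300.5 UMIs, against 4602.5, 3056 and 3041 in 0-UMI cells, so counts per cell favour them. At least 2 UMIs of T and NK cell genes occurred in 30.5% of chemokine-high and 12.7% of 0-UMI cells, and without Ccl5, which macrophages also make, in 14.9% and 9.62%. At least 2 UMIs of dendritic cell genes other than Cst3 occurred in 20.6% and 6.70%, and of endothelial genes other than Dnase1l3 in 34.0% and 23.5%. Thinned to 1000 UMIs, the shares with 1 or more such UMI were 14.2% and 12.2% for T and NK genes, 14.9% and 10.3% for dendritic genes and 22% and 23.1% for endothelial genes. In sum the dendritic list without Cst3, which macrophages carry in abundance, had 101, 227 and 306 CPM against 86.6, 108 and 124 CPM. Ifi205, which the type I interferon list also holds, gave 59.2, 85.4 and 99.8 CPM of the sums in 0-UMI cells. In cells with Cxcl9 alone, Cxcl10 alone and both, Ifi205 had 23, 34 and 50 UMIs over all libraries. Dendritic RNA below includes Ifi205 and so does not mark dendritic cells alone. Siglech, Snx22, Itgae and Kmo were at 0 in chemokine-high cells. The T cell list had 64.9, 131 and 84.1 CPM against 123, 93.6 and 78.7 CPM. The NK list, Ccl5 included, held 77, 80 and 38 UMIs in the chemokine-high cells of the 3 libraries. Of these, Ccl5 gave 46, 16 and 42 UMIs over all libraries in cells with Cxcl9 alone, Cxcl10 alone and both. The NK list thus does not mark NK cells alone. It had 250, 308 and 228 CPM against 188, 163 and 142 CPM, with Klra8, Klra4, Prf1 and Eomes at 0. A value of 0 does not show absence at this depth. The part of such RNA in the results was not tested, and counts without these barcodes stand beside them below.

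Further checks bear on the identity of the cells. Scrublet's own threshold marked 0% of barcodes as doublets and so did not work, and of the 4% with the highest scores in each library 2 were chemokine-high cells (1.42%, against 2.79% of 0-UMI cells). No chemokine-high cell had a barcode that was also kept in another library, while 20, 13 and 20 kept barcodes were shared by the pairs of libraries. Barcodes with under 100 UMIs, which hold free RNA, had 69.4, 42.0 and 40.0 CPM of both chemokine genes together, and all Kupffer cells in sum 67.1, 65.1 and 61.9 CPM, so that on chow the few-UMI barcodes were not lower. Lymphocyte barcodes, with 5 or more T and NK UMIs other than Ccl5 and Kupffer transcripts under 1%, should lack both genes and give a background. Of these, 6.87%, 1.05% and 3.77% had a UMI of the pair, against 9.03%, 7.09% and 5.80% of Kupffer cells, at median depths of 3670, 2615 and 2457 against 4675, 3117 and 3080 UMIs. Thinned, the shares were 2.29%, 1.05% and 3.14% against 2.88%, 3.01% and 2.39%. At least 3 UMIs occurred in 4 of 131, 1 of 95 and 4 of 159 lymphocyte barcodes (3.05%, 1.05% and 2.52%), a share not below that of Kupffer cells on chow and at 10 days. The share of chemokine-high cells is therefore not read as a share particular to Kupffer cells.

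Beside the pair, chemokine-high cells carried more RNA of some interferon gamma inducible GTPases, of some NF-kB-linked surface and survival genes and of a few secreted proteins. For the GTPases most of the excess lay in the 36 cells with 6 to 15 and the 25 with 16 or more UMIs of the pair. Of 6236 genes measured (a mean of at least 20 CPM in the higher class), 25 were at least 2 times higher in all 3 libraries, with 20 CPM added to both sides. This background is 0.401% of genes. No gene was at least 2 times lower in all 3 libraries (0%). In single libraries 0.561%, 1.20% and 1.46% of genes were at least 2 times higher and 0.208%, 0.353% and 1.60% lower. Above 1 in all 3 libraries were 15.2% of genes and below 1 were 20.8%. The median log2 ratio over all measured genes was −0.03, −0.02 and −0.04.

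Interferon gamma inducible GTPases of the GBP and IRG families attack the membranes around intracellular microbes. Of 13 measured members of this list, 3 were among the 25 genes (Gbp2, Gbp5 and Iigp1), 11 were above 1 in all 3 libraries and none below 1. Their median log2 ratios were 0.75, 0.72 and 1.03. Gbp5 (ENSMUSG00000105504, chromosome 3, 142493978 to 142522344) had 165 CPM in chemokine-high and 24.7 CPM in 0-UMI cells on chow, 250 and 24.1 CPM at 3 days, and 348 and 22.9 CPM at 10 days. The ratios were 6.71 (4.88 to 9.07), 10.4 (7.81 to 13.6) and 15.2 (11.1 to 20.5), so each library showed the difference, and the UMIs came from 60 of the 141 cells. Gbp2 (ENSMUSG00000028270, chromosome 3, 142620602 to 142638008) had 240 against 51.2, 258 against 25.8 and 156 against 29.6 CPM, ratios of 4.69, 10.0 and 5.27. Iigp1, an IRG GTPase, had 263 against 83.4, 177 against 58.5 and 294 against 45.8 CPM. Gbp4 had ratios of 2.04, 5.99 and 5.46, Gbp7 of 1.96, 1.92 and 2.68, and Irgm1 of 1.92, 1.79 and 3.22. GBP genes are similar in sequence, and how the authors' counting treated reads shared between copies is not given in the sources used here.

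Other targets of interferon gamma behaved unevenly. Of 23 measured, 4 were among the 25 genes, 19 were above 1 in all 3 libraries and 1 was below 1 in all 3, with medians of 0.48, 0.83 and 0.91. Serpina3g (ENSMUSG00000041481, chromosome 12, 104236245 to 104241939), a protease inhibitor that protects cells from lysosomal proteases, ranked first among the named genes by its least favourable library. It had 285 against 28.9 CPM on chow, 189 against 9.78 at 3 days and 306 against 13.4 at 10 days, ratios of 9.87 (7.71 to 12.5), 19.3 (13.5 to 27.2) and 22.8 (16 to 32). Its close copy Serpina3f had ratios of 3.19, 11 and 20.9, and shared reads make the split between both uncertain. Cd274, which encodes the T cell inhibitor PD-L1, had 127 against 37.4, 166 against 38.5 and 168 against 33.7 CPM. Irg1 (Acod1), the enzyme that makes itaconate, had 38.9 against 1.60, 65.5 against 0.590 and 102 against 4.01 CPM. Cd40, a receptor for T cell help, had ratios of 2.44, 2.99 and 3.81, and the chemokine Ccl5 of 1.94, 2.21 and 2.64. The count of 4 was 1 without barcodes with 2 or more T and NK UMIs, 2 when Ccl5 was not counted among these, 2 without barcodes with dendritic RNA and 1 without those with endothelial RNA.

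Upstream of these genes, the receptor and JAK-STAT list had none of 13 members among the 25 genes, with medians of 0.00, 0.19 and 0.16. Ifngr1, the receptor chain that binds interferon gamma, had 334 against 506, 582 against 699 and 474 against 599 CPM. The feedback inhibitor Socs1 had ratios of 3.08, 7.91 and 18.9, and Socs3 of 2.35, 21.6 and 11.1, both from low levels. Ifng had 0, 1 and 0 UMIs in chemokine-high cells.

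NF-kB-linked surface and survival genes had 6 of 17 measured members among the 25 genes (Cd83, Icam1, Cd274, Sod2, Bcl2a1a and Bcl2a1d). Cd274 is also counted among the interferon gamma targets above. Interferon gamma genes were divided over separate lists, with 3 and 4, so these counts do not rank the pathways. Of the 17, 15 were above 1 in all 3 libraries and none below, and the medians were 0.95, 1.29 and 0.97. Icam1 (ENSMUSG00000037405, chromosome 9, 21015985 to 21028817), the adhesion molecule that T cells and neutrophils bind, had 279 against 62.9, 320 against 79.0 and 384 against 69.2 CPM. Its ratios were 4.43 (3.50 to 5.55), 4.05 (3.19 to 5.07) and 5.55 (4.22 to 7.19), and 89 of the 141 cells held it, the most of the named higher genes. Cd83 (ENSMUSG00000015396) had 120 against 32.4, 220 against 52.0 and 216 against 60.3 CPM, but 1 cell held 48.6% of its UMIs on chow. Sod2, the mitochondrial superoxide dismutase, had 272 against 107, 389 against 103 and 306 against 122 CPM. Bcl2a1a, of a survival family whose copies Bcl2a1a, Bcl2a1b and Bcl2a1d are nearly identical and cannot be split with certainty, had 117 against 27.1, 69.3 against 17.8 and 90.1 against 25.5 CPM. The count of 6 was 2 without barcodes with T and NK RNA, and 3 at a Kupffer limit of 1.5% or a mitochondrial limit of 5%.

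The subunits and feedback inhibitors of NF-kB had 1 of 15 measured members among the 25 genes, Tnfaip3, with 13 of 15 above 1 in all 3 libraries and medians of 0.63, 0.70 and 0.50. Tnfaip3, the A20 enzyme that ends NF-kB signalling, had 51.9 against 11.4, 127 against 15.3 and 78.1 against 16.5 CPM. Nfkbia, which encodes the inhibitor IkB-alpha, had 380 against 255, 659 against 266 and 649 against 343 CPM. Nfkbiz, a nuclear cofactor of NF-kB, had ratios of 1.94, 4.95 and 5.64.

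Among inflammatory cytokines and chemokines other than the pair, 1 of 21 measured members was among the 25 genes, with 13 above 1 and 1 below 1 in all 3 libraries. The medians were 0.50, 0.93 and 0.35. That gene was Ccl7, a monocyte attractant, with 156 against 13.2, 308 against 8.93 and 54.1 against 5.55 CPM. Its UMIs came from 21 cells, and 1 cell at 10 days held 66.7% of the 9 there. Cxcl2 had 4 UMIs on chow (13 against 3.03 CPM), 48 at 3 days (185 against 7.84 CPM) and 16 at 10 days (96.1 against 9.32 CPM). Its ratio was 4.29 (1.11 to 12), 23.6 (16.3 to 33.8) and 10.3 (5.62 to 17.8), and of all its UMIs in chemokine-high cells 33.8% came from 1 cell. Ccl2, the main attractant of inflammatory monocytes, had ratios of 2.34, 7.31 and 5.24, Tnf of 3.09, 6.61 and 20.7 and Ccl4 of 1.87, 12.1 and 1.33. Il1b had 464 against 286, 909 against 340 and 474 against 259 CPM. In all, 6 genes of this list, among them Il12a, Il12b and Ifnb1, had no UMI in the chemokine-high cells, which does not show absence at this depth.

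The remaining named genes belong to no single list. Cxcl13, the attractant of B cells, had 616 against 237, 713 against 198 and 787 against 172 CPM, in 59 cells. C3, the central complement component, had 101 against 16.7, 92.4 against 25.4 and 210 against 28.8 CPM. Sdc4, a heparan sulfate proteoglycan, had 136 against 17.5, 239 against 21.3 and 174 against 19.8 CPM, ratios of 7.77, 11.2 and 8.79. Procr, the endothelial protein C receptor, had ratios of 7.46, 5.05 and 5.76, and Slamf8, a surface receptor of myeloid cells, of 3.87, 4.73 and 5.15. Dnase1l3, a DNA-degrading enzyme of macrophages, dendritic cells and endothelium, had 165 against 54.4, 169 against 43.7 and 222 against 49.3 CPM. The endothelial list in sum had 389, 524 and 505 CPM against 316, 297 and 332 CPM, and without Dnase1l3 224, 354 and 282 CPM against 262, 253 and 283 CPM. Fam26f had ratios of 2.74, 4.19 and 4.78, Cdc42ep2 of 3.50, 6.08 and 3.02 and S100a6, a calcium-binding protein, of 3.43, 7.91 and 4.24.

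Single cells set some of these values. Without the UMIs of the chemokine-high cell that held most of each gene in each library, 14 of the 20 named higher genes were still at least 2 times higher in all 3 libraries. Nothing was taken from the 0-UMI cells, so this lowers ratios in general. The median log2 ratio over all measured genes went from −0.03 to −0.21. The other 6 were Ccl7, Cd83, Fam26f, S100a6, Tnfaip3 and Cdc42ep2. S100a6, with 62.2% of its UMIs in 1 cell at 3 days, then had log2 ratios of 0.62, 1.03 and 0.49. Without barcodes that held T and NK RNA, 11 of the 20 were kept, and without those with dendritic or endothelial RNA 15 and 13. Of all 25 genes, 12, 17 and 15 were kept. A mitochondrial limit of 5%, which left 63 cells, kept 11 of the 20 named genes and 13 of the 25.

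**Figure D2:**
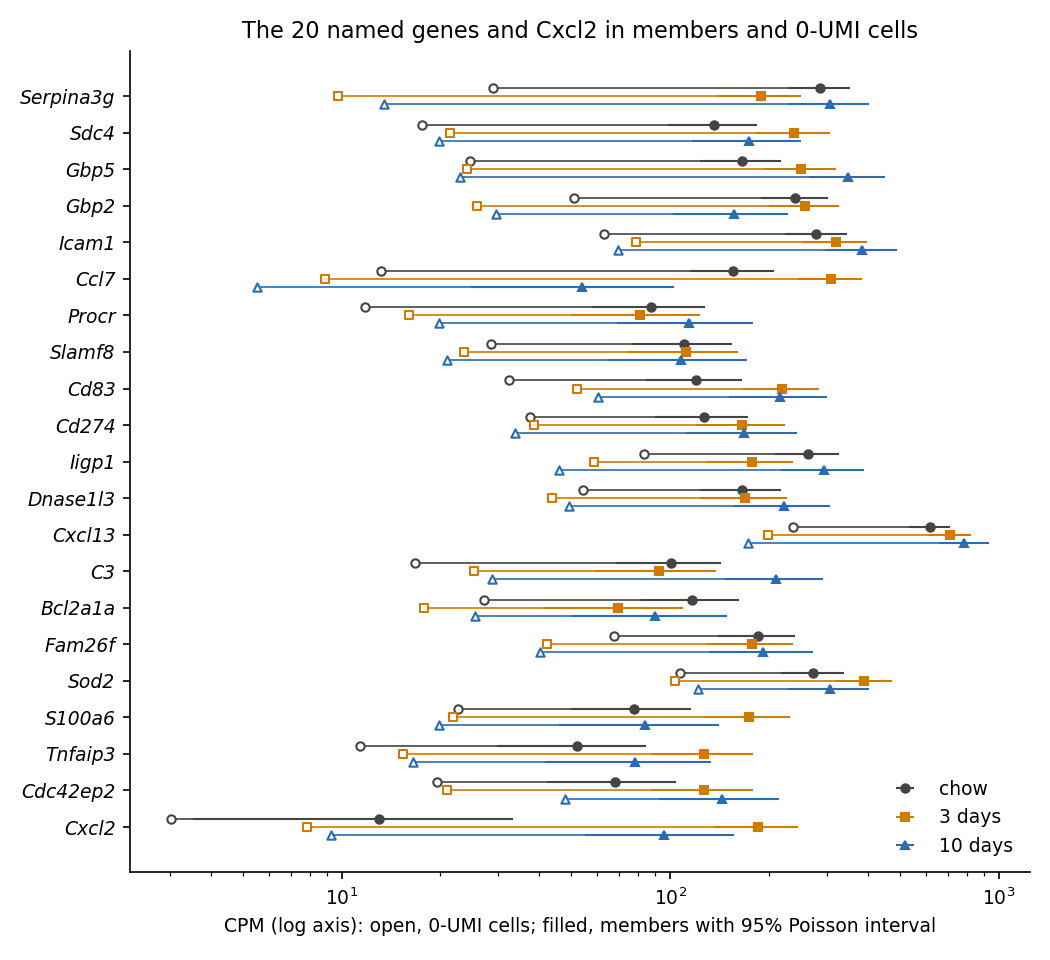
Level of the 20 named higher genes and of Cxcl2 in CPM (log axis) in chemokine-high cells (filled, with 95% Poisson intervals) and 0-UMI cells (open), joined per library. For each named gene the filled mark lies right of its open mark in all 3 libraries; Serpina3g is at 28.9 and 285 CPM on chow, and the Cxcl2 interval on chow, from 4 UMIs, is the widest.

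Lower values were smaller in size. The 10 named genes with the lowest ratios lay between log2 −0.50 and −1.16 in all 3 libraries, and none reached the 2-fold limit in each. Hes1, a transcriptional repressor downstream of Notch, had 152 against 303, 189 against 300 and 150 against 318 CPM, ratios of 0.504 (0.370 to 0.672), 0.630 (0.465 to 0.834) and 0.472 (0.305 to 0.698). Alox5ap, which helps to make leukotrienes, had ratios of 0.631, 0.627 and 0.413, and Cebpa, a myeloid transcription factor, of 0.585, 0.621 and 0.530. Txnip, which restrains glucose uptake and thioredoxin, had 331 against 481, 551 against 879 and 517 against 882 CPM. Tsc22d3, a mediator of glucocorticoid action, had ratios of 0.645, 0.639 and 0.447, and Smad7, the inhibitor of TGF-beta signalling, of 0.558, 0.369 and 0.327. For Smad7, Nek9, Borcs6, Tmem170b, Tsc22d3 and Grk6 the interval included 1 in at least 1 library.

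The remaining lists had few or no members among the 25 genes, though their ratios were not those of all genes. Type I interferon response genes, such as antiviral effectors, had 1 of 55 measured members among the 25 genes, 28 above 1 and 4 below 1 in all 3 libraries, and medians of 0.21, 0.14 and 0.24. The 1 member, Isg15, a ubiquitin-like modifier, had 188 against 71.3, 250 against 59.6 and 96.1 against 36.0 CPM. It was no longer 2 times higher in each library with the 0-UMI cells weighted to the depth of the chemokine-high cells. Irf7, the type I interferon master regulator, had ratios of 0.982, 1.13 and 1.12. The immediate-early list, of genes such as Fos that answer to stress within minutes, had 0 of 17 members among the 25 genes and medians of 0.04, 0.19 and −0.38. Fos had 120 against 161, 189 against 323 and 120 against 197 CPM. MHC class I and immunoproteasome genes had 0 of 20, but 12 of 20 were above 1 and none below 1 in all 3 libraries, with medians of 0.25, 0.31 and 0.29. MHC class II genes, which present antigen to CD4 T cells, had 0 of 7, but 6 of 7 were above 1 in all 3 libraries, with medians of 0.48, 0.46 and 0.80. H2-Aa had 3721 against 2484, 2646 against 1920 and 3045 against 1735 CPM. Kupffer identity genes outside the rule had 0 of 33 among the 25, 21 of 33 below 1 and 6 above 1 in all 3 libraries, and medians of −0.14, −0.20 and −0.15. Marco, a scavenger receptor for bacteria, was an exception, with 461 against 319, 1001 against 322 and 1405 against 573 CPM.

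The lists differed in how they changed with the number of UMIs of the pair in a cell. Summed GTPase RNA was 856 CPM in cells with 0 UMIs, 916 with 1, 1091 with 2, 991 with 3 to 5 (80 cells), 2325 with 6 to 15 (36 cells) and 3855 with 16 or more (25 cells). Most of the step thus lay above 5 UMIs. Cells just inside the limit, with 3 to 5 UMIs, had 842, 1020 and 1240 CPM in the 3 libraries, and cells just outside it, with 2 UMIs, 1121, 1070 and 1070 CPM. NF-kB-linked surface and survival genes were 2947, 3326, 4061, 4198, 5200 and 8057 CPM over the same classes. NF-kB subunits and feedback genes went from 959 CPM at 0 UMIs to 1222, 1615, 1753, 1593 and 2083 CPM. Type I interferon genes had 10907 CPM at 0 UMIs and 15194 CPM at 16 or more, immediate-early genes 3269 and 2810 CPM, and Kupffer identity genes 27976 and 20734 CPM. Vsig4 had 3450 CPM at 0 UMIs, 2945 at 3 to 5 and 1735 at 16 or more, while Timd4 had 461, 489 and 653 CPM. Depth differed between the classes, with medians of 3383 UMIs at 0 and 6181 UMIs at 16 or more.

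**Figure D3:**
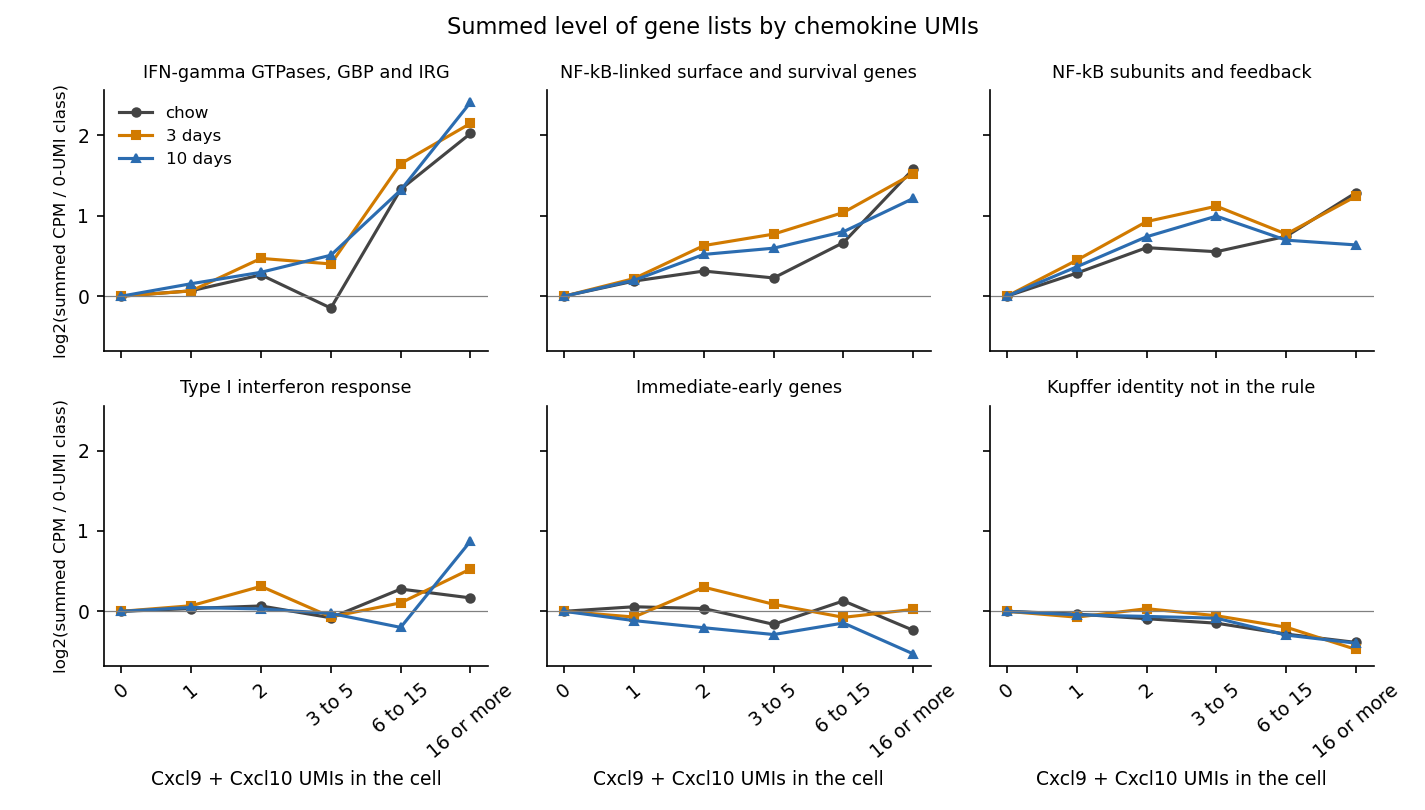
Log2 of the summed CPM of 6 gene lists over that of 0-UMI cells of the same library (y axis) for cells with 0, 1, 2, 3 to 5, 6 to 15 and 16 or more UMIs of Cxcl9 and Cxcl10 (x axis), 1 line per library. The GTPase lines are highest at 16 or more and next highest at 6 to 15 UMIs in all 3 libraries, whereas the NF-kB lines are already above 0 at 1 UMI and the Kupffer identity lines end below 0.

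Cells with UMIs of Cxcl9 alone and cells with UMIs of Cxcl10 alone differed in which other genes they carried. Of 3705 genes measured in both, 8 (0.216%) were at least 2 times higher in the 42 Cxcl9-only cells and 21 (0.567%) in the 67 Cxcl10-only cells, in all 3 libraries. The genes named from this split were chosen after their values were seen. The 8 were Rab7b, Ppt1, Clec9a, Chtf8, Pccb, H2-Eb1, Cfb and C3, with 2 complement genes and 1 class II gene among them. The class II chain H2-Eb1 had 4788, 2614 and 3110 CPM in Cxcl9-only and 1659, 1265 and 956 CPM in Cxcl10-only cells, where 0-UMI cells had 1709, 1323 and 1126 CPM. The class II list in sum had 32074, 18202 and 20170 CPM in Cxcl9-only and 14318, 10492 and 9332 CPM in Cxcl10-only cells. C3 had 189, 167 and 359 CPM against 7.75, 41.1 and 42.2 CPM, and complement factor B (Cfb) 144, 74.1 and 152 against 15.5, 16.4 and 14.1 CPM. Ppt1, a lysosomal thioesterase, had 315, 556 and 539 against 93.0, 115 and 112 CPM. Dnase1l3, below the 2-fold limit in 1 library, had 324, 241 and 429 against 62.0, 123 and 56.2 CPM. Clec9a, a receptor of cross-presenting dendritic cells, came from 9 and 3 cells. RNA of the dendritic list (2 or more UMIs other than Cst3, Ifi205 included) occurred in 21.4% of Cxcl9-only, 11.9% of Cxcl10-only and 6.70% of 0-UMI cells. Flt3 had 0 UMIs in both kinds and Xcr1 and Zbtb46 1 or 2 each. Median depths were 5463, 4475 and 3383 UMIs, and thinned to 1000 UMIs the shares with 1 or more such UMI were 16.7%, 10.4% and 10.3%. At least 2 UMIs of T and NK genes, Ccl5 included, occurred in 42.9%, 16.4% and 12.7% of the cells. Without Ccl5 these shares were 14.3%, 11.9% and 9.62%. Thinned, and without Ccl5, 1 or more such UMI occurred in 9.52%, 17.9% and 12.2%. The part of this RNA in the contrast was not tested.

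The 21 genes higher in Cxcl10-only cells included cytokine genes and NF-kB feedback genes. They were Gm4955, Pydc4, Il1b, Pde4b, Il6, Cxcl2, Clip1, Cd163, Trim30a, Ifitm6, Sowahc, Ier2, Birc3, Ltc4s, Irgm2, Ccl2, Slfn5, Ccl4, Nfkbia, Ifi27l2a and Tnf. The cytokine list held 6 of them and the type I interferon list 4. Il1b, the inflammasome-processed cytokine, had 682, 1200 and 562 CPM in Cxcl10-only and 189, 334 and 194 CPM in Cxcl9-only cells, where 0-UMI cells had 286, 340 and 259 CPM. The ratio over all libraries was 3.81 (2.83 to 5.22), and 51 of the 67 cells held it. Nfkbia had 558, 863 and 885 against 234, 278 and 332 CPM, a ratio of 2.72 (2.06 to 3.64). Ccl2 had 7, 34 and 16 UMIs against 0 in each library, and the 95% interval of the ratio began at 11. Tnf had 5, 10 and 7 UMIs against 0, and the interval began at 4.04. Birc3, a survival factor induced by NF-kB, had 163, 156 and 155 against 54.0, 0 and 27.7 CPM. Cd163, the haemoglobin scavenger receptor, had 589, 1265 and 703 against 252, 408 and 332 CPM, and in 0-UMI cells 550, 1190 and 594 CPM, so its lower value stood in the Cxcl9-only cells.

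The 32 cells with both transcripts carried the highest levels of several interferon gamma targets. Serpina3g had 1013, 488 and 913 CPM in them, against 108, 130 and 83.0 CPM in Cxcl9-only and 54.3, 8.22 and 337 CPM in Cxcl10-only cells. Gbp5 had 499, 405 and 1435 CPM, against 27.0, 297 and 180 and against 109, 123 and 169 CPM. Icam1 had 719, 500 and 783 CPM, Cd274 367, 262 and 478 CPM and Iigp1 763, 345 and 1043 CPM, each above both other kinds in all 3 libraries. Gbp2 had 631, 369 and 478 CPM, but 463 CPM in Cxcl9-only cells at 3 days. Ccl7 came mostly from these cells, with 46, 56 and 2 UMIs. They had a median of 11.5 UMIs of the pair, against 6 and 4 in the other kinds, and 37.5% of them held RNA of the dendritic list, Ifi205 included. At 10 days these values rest on 5 cells.

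**Figure D4:**
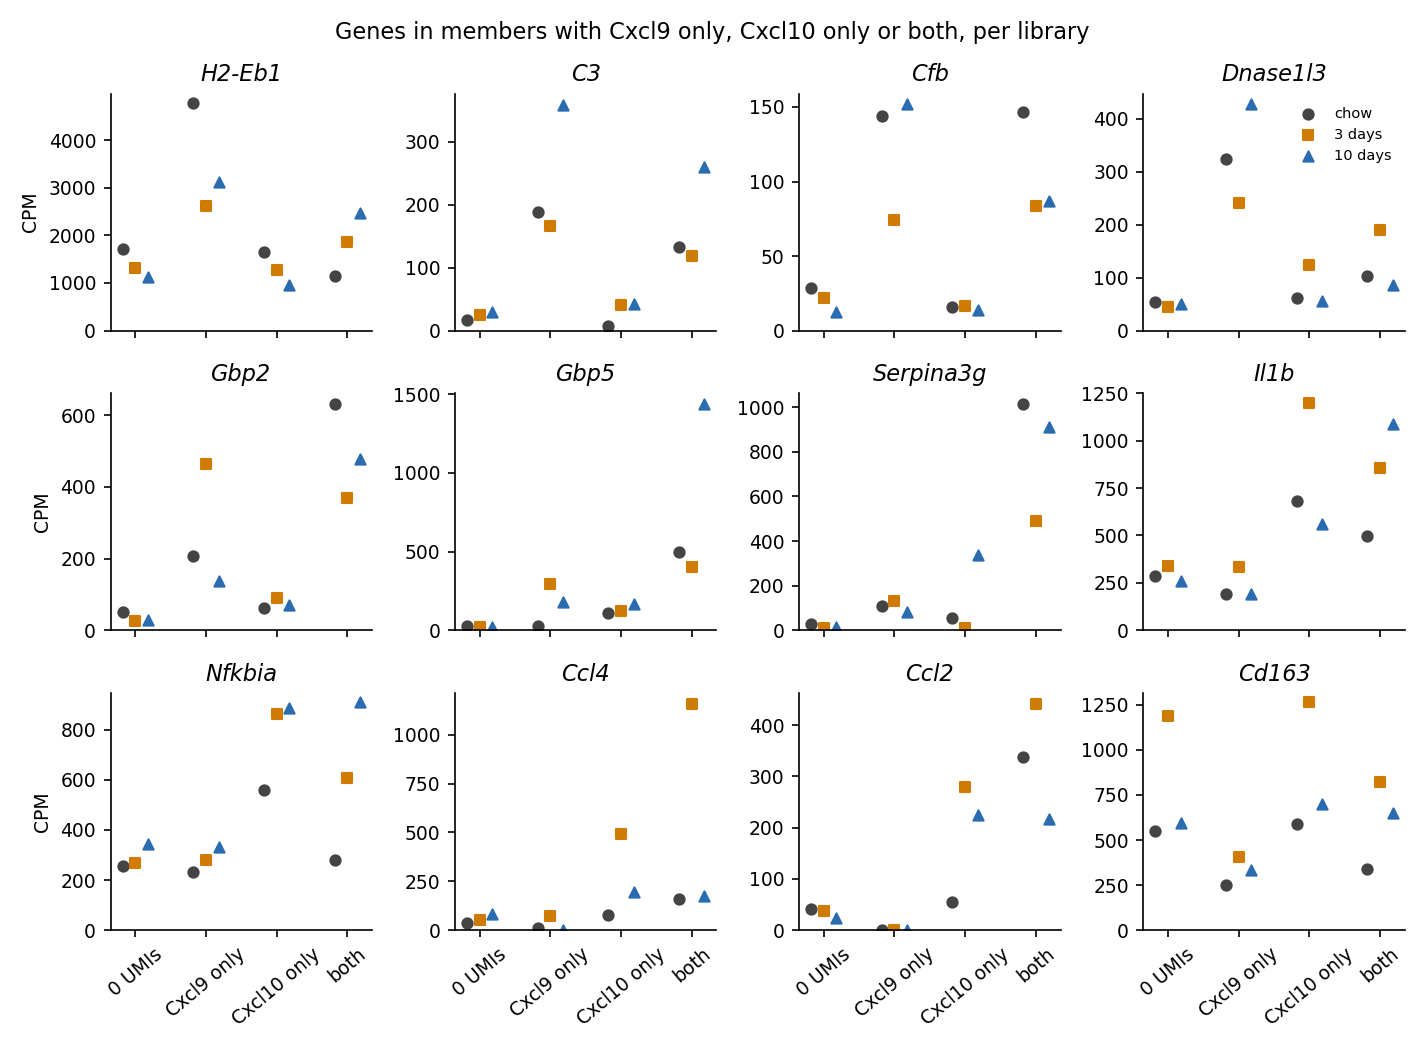
CPM of 12 genes (y axes, different scales starting at 0) in 0-UMI cells and in cells with Cxcl9 alone (42), Cxcl10 alone (67) or both (32), 1 mark per library. H2-Eb1, C3, Cfb and Dnase1l3 were highest in Cxcl9-only or double cells, Il1b, Nfkbia, Ccl4 and Ccl2 were higher in Cxcl10-only than in Cxcl9-only cells, and Gbp5 and Serpina3g were highest in cells with both.

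Between diets, chemokine-high cells of 1 mouse were compared with those of another, and the 0-UMI cells of the same libraries are given beside them. Whether the difference between diets was itself different in chemokine-high cells was not tested. At 3 days over chow, 34 of 1773 genes with at least 100 CPM in either library were at least 2 times higher (1.92%) and 14 lower (0.79%), with 20 CPM added to both sides. Ccl4, an attractant of T cells and monocytes, had 620 CPM at 3 days and 71.4 on chow, a ratio of 8.69 (5.55 to 14.3), where 0-UMI cells had 51.3 and 38.2 CPM (1.34). A single cell held 28.0% of the UMIs at 3 days. Cxcl2 had 185 and 13 CPM (14.2, 5.22 to 54.4), against 7.84 and 3.03 CPM in 0-UMI cells (2.59). Ttc39c, with 131 and 6.49 CPM, had a ratio of 20.2 close to the 18.1 of 0-UMI cells. Egr1 had 26 UMIs and 1 UMI, a ratio of 30.9 (5.07 to 1266), against 2.65 in 0-UMI cells. Actn4, an actin crosslinker, had 154 and 35.7 CPM (4.32), against 0.978. Among lower values, Igkc, an immunoglobulin chain of plasma cells, had a ratio of 0.0766, as in 0-UMI cells (0.0733). The potassium channel Kcnj10 had 11.6 and 104 CPM, Tfrc, the transferrin receptor, 23.1 and 114 CPM and Tspan15 38.5 and 123 CPM, and their ratios in 0-UMI cells were 0.409, 0.389 and 0.510. Apol7c had 38.5 and 201 CPM (0.191, against 0.338), with 59.7% of its chow UMIs in 1 cell.

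At 10 days over chow, 44 of 1819 genes were at least 2 times higher (2.42%) and 31 lower (1.70%). Marco had 1405 CPM at 10 days and 461 on chow, a ratio of 3.05 (2.47 to 3.79), and 573 and 319 CPM in 0-UMI cells (1.80). Slc16a10, an amino acid transporter, had a ratio of 5.29 (2.15 to 14.8) against 1.97, and Nfkbiz one of 3.49 (1.88 to 6.69) against 1.20. Rnf139, a ubiquitin ligase, had 120 and 29.2 CPM (4.11), against 1.19. Rsad2, the antiviral enzyme viperin, had 336 and 107 CPM (3.14, against 0.969 in 0-UMI cells), but 80.4% of the UMIs at 10 days came from 1 cell, and without the top cell of each library its log2 ratio was −0.32. The low ratio of S100a8 (0.0974, against 1.02 in 0-UMI cells) likewise rested on 1 chow cell with 97.4% of its UMIs, and without the top cells it was log2 0.16. Igkc had 0.0597 against 0.0874 in 0-UMI cells, Nfxl1 0.239 against 0.724, Rnf187 0.272 against 0.864 and D8Ertd738e 0.355 against 0.573. Of the genes that set the chemokine-high cells apart, Gbp5 was 2.11 times (1.42 to 3.13) the chow level at 10 days, against 0.928 times in 0-UMI cells. C3 was 2.09 times (1.25 to 3.51) against 1.72, Cdc42ep2 2.12 times (1.13 to 4.0) against 2.45, and Cd83 1.80 times (1.11 to 2.93) against 1.86, so that the values of both classes lay close together for these 3 genes. For Cd83 the chow level rests largely on 1 cell, which held 48.6% of its UMIs there. Ccl7 was 0.347 times (0.150 to 0.715) the chow level at 10 days, against 0.421, but 1.98 times (1.37 to 2.89) at 3 days, against 0.678. Icam1, Serpina3g, Cd274 and Iigp1 had intervals that included 1 at 10 days. Cxcl13 was then 1.28 times (1.01 to 1.60) the chow level, against 0.729, and Cxcl2 7.41 times (2.39 to 30.4), against 3.08. At 3 days Serpina3g was 0.661 times (0.456 to 0.948), against 0.338, and Iigp1 0.674 times (0.459 to 0.980), against 0.701. Gbp5, Cd83, Sdc4, Sod2, S100a6, Tnfaip3 and Cdc42ep2 had 3-day intervals above 1, with ratios of 1.51, 1.83, 1.75, 1.43, 2.23, 2.45 and 1.87. In 0-UMI cells their ratios were 0.978, 1.61, 1.22, 0.963, 0.966, 1.35 and 1.07.

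**Figure D5:**
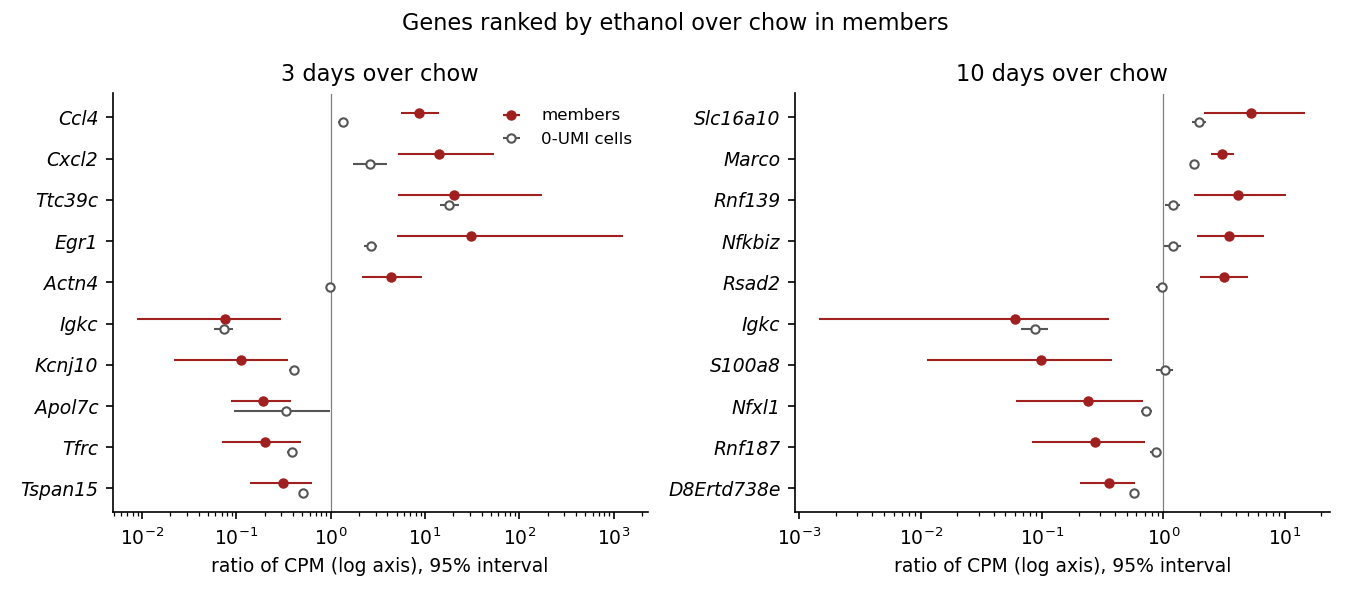
Ratio of CPM, ethanol over chow (log axis, 95% conditional binomial intervals), for the genes with the highest and lowest ratios in chemokine-high cells (filled) and for the same genes in 0-UMI cells (open), at 3 and 10 days. For Ttc39c and Igkc both marks lie close together, and for Ccl4 the mark of chemokine-high cells is at 8.69 against 1.34.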

How the data were processed

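The authors deposited 1 raw matrix of UMI counts per sample, with barcodes not yet chosen as cells. The submitters' processing notes name Cell Ranger 2.2.0, GRCm38 and mm10. Its annotation and options are not given in the sources used here. Positions of genes came from GENCODE vM21, where 28339 of 28692 gene IDs were found. The cells, the gene lists and the rules were chosen with earlier results of these data known. Raw counts were summed per library and class and scaled to CPM. Printed ratios have nothing added. Log2 ratios, medians and the 2-fold limit used 20 CPM added to both sides. Named genes had at least 50 CPM in the higher class in each library and a UMI in at least 10% of its cells. They were ranked by the least favourable of the 3 log2 ratios, 20 highest and 10 lowest, leaving out the genes of the rule and mitochondrial, ribosomal, provisional, hepatocyte and erythroid genes. From each list up to 4 further genes with the largest mean ratio, in either direction, could be named, and other genes named for their role were chosen after their values were seen. For ethanol over chow, the 5 highest and 5 lowest genes with at least 100 CPM in 1 library and an interval without 1 were named. Intervals are exact at 95% (Poisson, Clopper-Pearson or conditional binomial) and cover counting error only. Libraries held 21650747, 21471782 and 16538895 UMIs. No significance test was made. Counting of genes was tested on simulated data. Numpy 2.4.6, scipy 1.17.1, pandas 2.3.3 and scanpy 1.11.5 (Scrublet) were used. Doublets were not removed in the values reported.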

Additional observations from a re-analysis of the deposited data

Results flagged for a closer look

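UMIs of Cxcl9 and Cxcl10 also appeared in barcodes outside the Kupffer cells. Of 761 kept barcodes with Kupffer transcripts under 1% of their UMIs, 21 held 3 or more UMIs of the pair (8 on chow, 5 at 3 days and 8 at 10 days), which is 2.76% (1.72% to 4.19%). The lymphocyte barcodes used above as background are among the 761 and gave 4, 1 and 4 barcodes with 3 or more UMIs. They are listed because the comparisons of genes leave these barcodes out, and the share is not read as expression. In sum, these barcodes had 7890 CPM of the dendritic cell list, against 3267 CPM in the other barcodes under 1%. Unlike above, this list includes Cst3, which macrophages also carry, so the value is not particular to dendritic cells. The endothelial list, here with Dnase1l3, had 3954 against 3889 CPM. T cell genes had 1257 against 3366 CPM and NK genes 1955 against 4613 CPM. Kupffer genes of the rule had 4338 against 2265 CPM. Which cells these were was not tested.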

How the results depend on the processing

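No paired analysis was possible because each group had 1 library. Of the values that answer a comparison, 123 under the alternatives stayed close to those reported and 63 moved, the cause of which was not tested unless the alternative itself removes cells or counts. Of the values of single genes, 1180 stayed close, 171 moved and 11 changed sign. The share of chemokine-high cells (1.85%, 1.52% and 1.32%) was 3.04%, 2.57% and 2.02% at 2 or more UMIs, 1.02%, 0.707% and 0.698% at 5 or more, 0.709%, 0.707% and 0.514% after thinning, and 3.47%, 0.588% and 0% at a Kupffer limit of 3%. Without barcodes with T and NK RNA it was 1.14% at 3 days. The limit of 3% left 9, 1 and 0 cells, so gene values were not run there. The count of 25 higher genes was 39 at 5 or more UMIs (24 of the 25 shared), 50 with 1 CPM added (25 shared), 16 at a mitochondrial limit of 5%, 12 without T and NK RNA, 14 without the top cell of each gene and 15 when Ccl5 was not counted as T and NK RNA, the last chosen after seeing the data. The count of 0 lower genes was 2, 3, 3, 4, 3 and 3 under the same alternatives. Leaving out top cells took UMIs from chemokine-high cells only, which by itself lowers ratios.

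Counts of list members 2 times higher in all 3 libraries moved as follows. At 5 or more UMIs the GTPases had 7, type I interferon genes 2, cytokines 2, immediate-early genes 1 and Kupffer identity genes 1. With 1 CPM added, the other interferon gamma targets had 7, type I genes 2, NF-kB feedback genes 3, cytokines 6 and immediate-early genes 2. At a mitochondrial limit of 5%, type I and NF-kB feedback genes had 0, NF-kB surface genes 3, cytokines 2 and Kupffer identity genes 1. Without T and NK RNA, the other interferon gamma targets had 1, type I genes and cytokines 0 and NF-kB surface genes 2. At a Kupffer limit of 1.5%, type I genes had 0, NF-kB surface genes 3 and cytokines 2. With Ccl5 not counted as T and NK RNA, the other interferon gamma targets had 2 and type I genes 0. Without dendritic RNA they had 2 and 0, and cytokines 0. Without endothelial RNA, the other interferon gamma targets had 1 and NF-kB feedback genes 0. Weighting the 0-UMI cells by depth left type I genes at 0. The limit of 1.5% and the removal of dendritic or endothelial RNA were also chosen after seeing the data.

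For 3 days over chow, the 34 higher genes were 64 without T and NK RNA, and the 14 lower genes were 27 without it, 8 without top cells and 40 at 5 or more UMIs. For 10 days over chow, the 44 higher genes were 102 without T and NK RNA and 96 at 5 or more UMIs, and the 31 lower genes were 54 and 63. Signs changed as log2 ratios at a mitochondrial limit of 5% for Dnase1l3 at 10 days (−1.85), S100a6 on chow (−0.016) and at 10 days (−1.57), Borcs6 (0.31) and Grk6 (0.66) at 10 days, and Cxcl2 on chow (−0.21). Without endothelial RNA, Cd83 (−0.14) and Cxcl2 (−0.19) changed sign on chow. Rsad2 at 10 days over chow was −0.32 without top cells and −0.95 without T and NK RNA, and S100a8 was 0.16 without top cells. Depth limits all of this: at 10 days the 36 chemokine-high cells held 166493 UMIs in sum, so a gene at 20 CPM there rests on few molecules.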

Other observations

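Proliferation genes were higher in sum in chemokine-high cells at 3 days, with 589 CPM against 195 CPM in 0-UMI cells. On chow they had 266 against 185 CPM and at 10 days 288 against 224 CPM. None of 11 measured members was at least 2 times higher in all 3 libraries, beside 0.401% of all genes, and the medians were 0.04, 1.02 and 0.18. Top2a, the topoisomerase of dividing cells, had ratios of 2.31, 3.63 and 0.751, and Mki67 came from 9 of the 141 cells. Heat shock genes had 0 of 9 measured members 2 times higher, but 8 of 9 above 1 in all 3 libraries, with medians of 0.18, 0.37 and 0.30. Hspd1, a mitochondrial chaperone, had ratios of 1.20, 1.76 and 1.92.

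Hepatocyte genes in sum were 1090, 1044 and 853 CPM in chemokine-high cells and 1247, 1385 and 1193 CPM in 0-UMI cells. Erythroid genes were 276, 61.6 and 42.0 CPM against 316, 385 and 342 CPM. The chow value was set by few cells. The 8 chow cells with 16 or more UMIs of the pair had 1212 CPM, and those with 3 to 5 and 6 to 15 had 40.7 and 27.3 CPM. The monocyte and neutrophil list had 678, 639 and 468 CPM against 448, 433 and 333 CPM, of which S100a8 gave 123, 73.2 and 12 CPM, held by 7 cells.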
